A study of Mus musculus with 24 samples.

Results

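The developing atrioventricular (AV) conduction tissue of the mouse was followed from the AV canal at E10.5 to the AV node at E17.5 (E, embryonic day). The samples were chosen by their reporter: of the 24 arrays of the study, the 12 made from Tbx3BAC-Egfp mice were used, 6 of AV canal myocardium and 6 of AV node myocardium. The other 12 arrays held working myocardium of NppaBAC336-Egfp mice, 6 at E10.5 and 6 at E17.5, and served only to ask whether a stage difference was also seen outside the AV tissue. Both lines carry a green fluorescent protein (GFP) transgene, and the labels name no other allele and no treatment. GFP-positive tissue was dissected and pooled from several hearts, dissociated and sorted, and RNA of 5000 sorted cells per sample went through 2 rounds of linear amplification before hybridisation to an Illumina mouse BeadChip. Each sample is thus a pool selected by reporter fluorescence, and the 2 AV groups share the reporter while the working groups have another. The labels call the 6 samples of a group biological replicates.

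The AV canal is the ring of slowly conducting myocardium between the embryonic atria and ventricles, and most of the AV node forms from it. The transcriptional repressor Tbx3 is expressed in both and keeps the chamber programme off, acting against activators such as Tbx5, Nkx2-5 and Gata4. Chamber (working) myocardium by contrast activates Nppa and a dense contractile and metabolic apparatus as it grows.

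Intensities were background-corrected, put on a log2 scale and quantile-normalized over the 12 arrays, and every level below is such a log2 intensity, given as the lowest, median and highest of the 6 arrays of a group. A difference is AV node minus AV canal on that scale with its standard error (SE), n = 6 against 6, and an adjusted p is limma's with Benjamini-Hochberg correction over all 46632 probes. Where a gene had several probes, the one with the brightest mean over the 12 arrays stands for it, and levels of different genes are not compared. The stage difference in working myocardium and the difference between the 2 stage changes (the interaction) come from a limma fit to all 24 arrays.

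The 2 AV groups were hybridised with different overall brightness, since the median deposited intensity was 110 to 123 on the AV canal arrays and 54.9 to 60.5 on the AV node arrays. Stage and hybridisation therefore cannot be told apart by the 12 arrays alone. Between 17768 and 19670 probes exceeded background on an array. Each array correlated with the others of its group at a mean r of 0.980 to 0.989, and the first principal component, with 69.2% of the variance, separated the groups. AV canal replicates 4 and 6 stood apart from the other canal arrays, and AV node replicates 1 to 3 separated from replicates 4 to 6 on the second component (6.2%). In these alternatives, chosen after seeing the data, a gene described below is given without these arrays where that ended its call or moved a difference by over 1.5 times.

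The reporter gene came first. Tbx3 (ILMN_1247220) read 10.64, 11.44 and 12.29 in the AV canal and 10.88, 11.43 and 11.70 in the AV node, and the difference was -0.17 (SE 0.26, adjusted p = 0.712). Its other probe, ILMN_1228778, differed by -0.13 (SE 0.299, adjusted p = 0.814). The 2 groups overlapped on both probes, and the sign was not stable: without AV canal replicates 4 and 6 the differences were 0.18 and 0.32, and with AV canal slide code 1 (replicates 1 to 3) alone they were 0.26 and 0.17, none past the test. In working myocardium, on the 24-array scale, the first probe was at 9.10, 9.59 and 10.01 at E10.5 and 6.62, 7.04 and 8.28 at E17.5, a fall of 2.38 (adjusted p = 2.40e-07), so that the stage changes differed by 2.21 (adjusted p = 0.000254). On the other probe they differed by 1.09 (adjusted p = 0.0382), a call that was lost with median scaling (0.81, adjusted p = 0.24), with cyclic loess (0.65, adjusted p = 0.343), with AV node replicates 1 to 3 or 4 to 6 alone (adjusted p = 0.0772 and 0.115), and on leaving out any of AV canal replicates 1, 2, 3 and 5, AV node replicates 1, 2, 4 and 6, or working replicates 1 to 4 at E10.5 and 2, 3, 5 and 6 at E17.5 (adjusted p from 0.0505 to 0.0734). On the first probe the gap between AV and working tissue was thus wider at the later stage. The AV samples were selected by a Tbx3 reporter at both stages, so their Tbx3 level is not independent of the selection. For this gene the comparison of tissues is a description only.

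Markers of myocardium were present at both stages. All 11 measured cardiomyocyte markers exceeded background on all 12 arrays, yet 10 of them were lower in the AV node and none was higher, with a list median of -2.29. Across all 17711 named genes, 18.3% were called higher and 19.8% lower, with a median difference of 0.007. The summed normalized intensity of the cardiomyocyte markers was 84686 to 134168 in the AV canal and 15340 to 59933 in the AV node. Within the AV node it split by replicate number: relative to the canal mean, the mean log2 intensity of the list was -3.26 to -2.72 in replicates 1 to 3 and -1.76 to -1.30 in replicates 4 to 6. The list median was -3.04 with AV node replicates 1 to 3 alone and -1.55 with replicates 4 to 6 alone. Replicates 4 to 6 were also the dimmer AV node arrays by mean deposited intensity, and the cause of the split was not tested. In these sorted bulk samples, fewer cells of a type and less RNA per cell cannot be told apart.

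Markers of other cell types moved in both directions, and their counts can be set beside 18.3% higher and 19.8% lower among all genes. Of 12 fibroblast and cushion mesenchyme markers, 10 were higher in the AV node and 1 was lower (median 2.59), and their summed intensity went from 22537 to 37615 in the canal up to 84417 to 103159 in the node. Of 9 epicardial markers, 7 were lower and none was higher (median -2.18), and the sum fell from 7555 to 21676 down to 966 to 2015. Of 9 erythroid markers 4 were lower, with sums of 3007 to 7274 against 771 to 1804. The sums did not overlap between the stages for these 3 lists. The lower call in the fibroblast list, which is also among the epicardial calls, was Tcf21, at background on all 12 arrays.

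Endothelial and endocardial markers were 6 of 12 higher and 1 lower (median 0.69), with sums of 5229 to 13914 against 11904 to 27915 that overlapped. The number of higher endothelial markers was 3 when AV canal replicate 2 or 4, or AV node replicate 1, 4 or 5, was left out. Of 8 smooth muscle and pericyte markers 4 were higher and 2 lower, while their sum was lower without overlap, 26063 to 38271 in the canal and 19812 to 22021 in the node. Of 13 neural markers 2 were higher and 2 lower, near the shares of all genes, with overlapping sums of 4533 to 9243 and 3284 to 6043. Of 10 leukocyte markers 3 were lower, with sums of 1721 to 2883 and 703 to 1194 that did not overlap, while Lyz2 among these and the leukocyte genes Ptprc, Tyrobp, Cd14 and Cd52 were at background on all 12 arrays. The part of these cell types in the gene differences below was not tested.

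**Figure D1:**
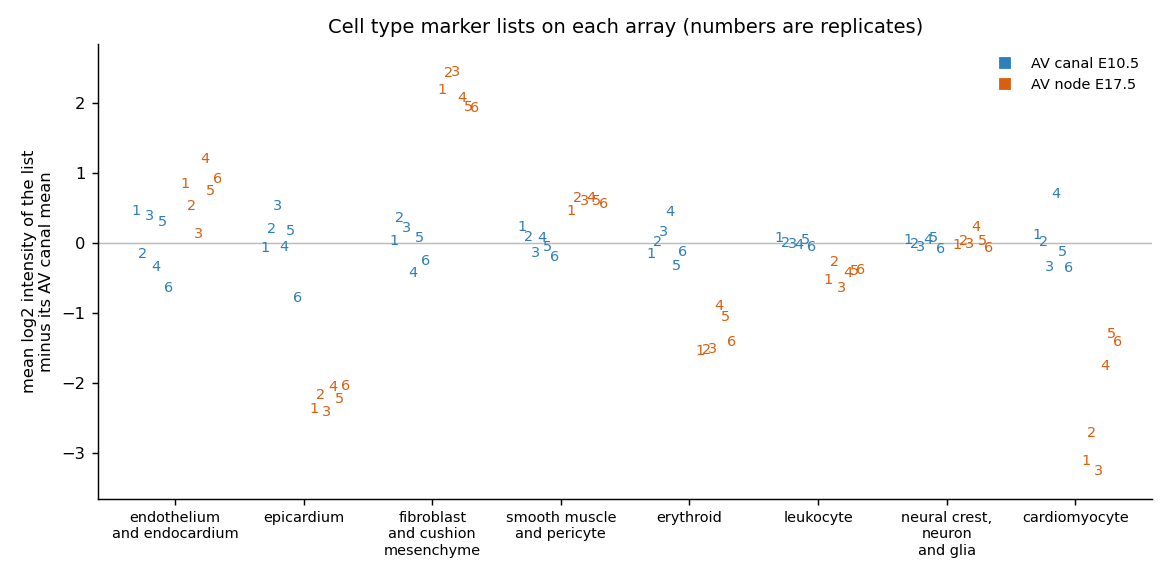
Mean log2 intensity of each of 8 marker lists on each of the 12 AV arrays, minus the AV canal mean of that list, with replicate numbers as symbols. The cardiomyocyte and epicardial lists sit lower and the fibroblast list higher in the AV node, and AV node replicates 1 to 3 lie below replicates 4 to 6 in the cardiomyocyte list.

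Over all probes, 12396 differed between AV canal and AV node at an adjusted p under 0.05 (26.6%), 5904 higher in the node (12.7%) and 6492 lower (13.9%), and the 2 groups did not overlap on 16.5% of probes. Of the calls, 1554 were at least 2-fold higher (3.33%) and 1611 at least 2-fold lower (3.45%). With arrays scaled to the same median in place of quantile normalization, 22769 probes were called and the share of calls that were higher went from 47.6% to 56.8%. At the extremes, 171 called probes were above background on all 6 AV node arrays and on no AV canal array, and 329 showed the opposite.

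**Figure D2:**
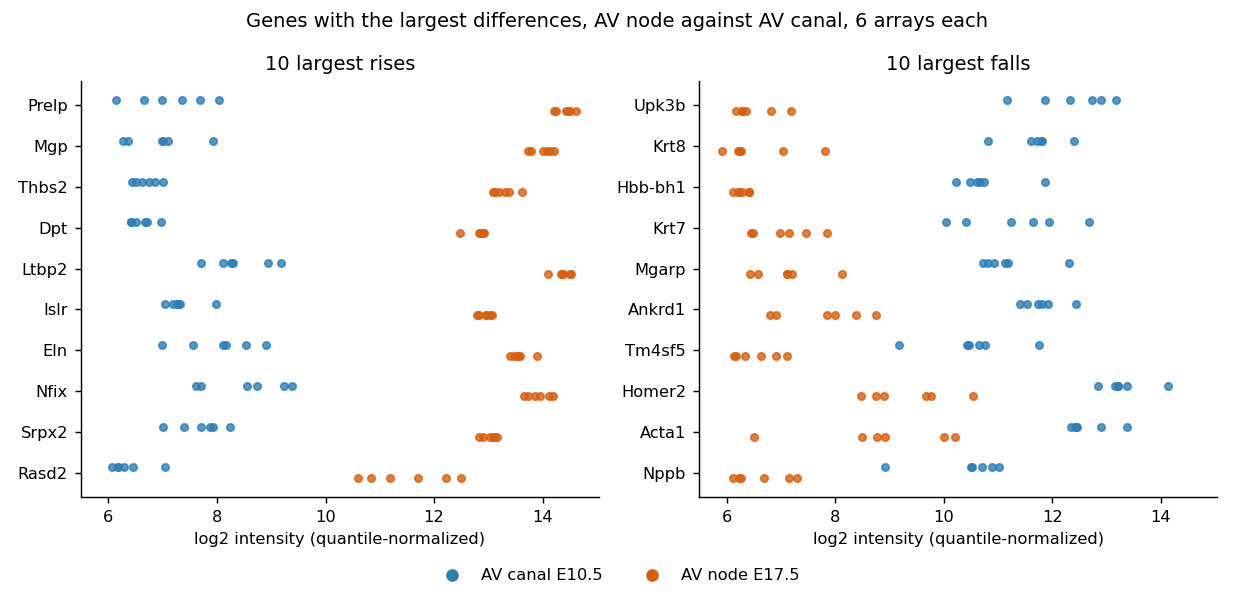
Normalized log2 intensity on each of the 12 AV arrays for the 10 genes with the largest rise and the 10 with the largest fall among called, non-overlapping probes. By this selection, no AV canal dot reaches the AV node dots of the same gene in either panel.

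Most of the 10 largest rises were genes of the connective tissue matrix. Prelp, a leucine-rich proteoglycan that anchors basement membranes, read 6.13, 7.18 and 8.03 in the AV canal and 14.22, 14.45 and 14.61 in the AV node, a difference of 7.27 (SE 0.264, adjusted p = 2.04e-09) or 155-fold. Mgp, the matrix Gla protein that inhibits calcification, went from 6.26, 7.0 and 7.92 to 13.73, 14.04 and 14.21 (7.05, SE 0.233, adjusted p = 1.10e-09). The lowest node array was more than 5 log2 units above the highest canal array for both.

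Thbs2, an antiangiogenic matricellular thrombospondin, rose from 6.44, 6.68 and 7.0 to 13.08, 13.25 and 13.62 (6.59, SE 0.111, adjusted p = 1.96e-12). Dpt, dermatopontin, which assists collagen fibril assembly, rose by 6.20 (SE 0.104) and Ltbp2, a protein of elastic microfibrils, by 5.95 (SE 0.21). Elastin itself, Eln, rose from 6.99, 8.13 and 8.91 to 13.40, 13.54 and 13.90 (5.53, SE 0.262, adjusted p = 1.57e-08). The remaining members of the 10 were Islr (5.6), Srpx2 (5.33), the transcription factor Nfix, and Rasd2. Nfix, a nuclear factor I protein that drives the switch from embryonic to fetal programmes in skeletal muscle, went from 7.62, 8.64 and 9.39 to 13.65, 13.91 and 14.19 (5.38, SE 0.287, adjusted p = 3.89e-08). Rasd2, a small Ras-like GTPase, went from 6.06, 6.23 and 7.04, above background on only 1 canal array, to 10.59, 11.45 and 12.50 (5.14, SE 0.311, adjusted p = 1.04e-07). All of these groups were separate, as the selection of the 10 required.

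The largest falls were epithelial, embryonic globin and stress-responsive muscle genes. Upk3b, a uroplakin of mesothelium, went from 11.16, 12.54 and 13.17 to 6.17, 6.32 and 7.19 (-5.84, SE 0.313, adjusted p = 3.97e-08). Krt8, a simple-epithelium keratin, went from 10.81, 11.75 and 12.40 to 5.92, 6.26 and 7.82 (-5.11, adjusted p = 1.46e-07), and Krt7, of the same kind, fell by 4.26. Upk3b and Krt8 belong to the epicardial list above. The embryonic beta-like globin Hbb-bh1 was at 10.23, 10.64 and 11.87 in the canal and above background on no node array, at least 19.2-fold lower (adjusted p = 1.68e-08).

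Acta1, skeletal alpha-actin, which embryonic heart muscle also uses, went from 12.34, 12.45 and 13.38 to 6.50, 8.84 and 10.20 (-3.84, SE 0.511, adjusted p = 7.99e-05). The node values of Acta1 spread over more than 3 log2 units, but none reached the canal range, as the selection of the 10 falls required. Mgarp (-4.09), Tm4sf5 (-3.99) and the scaffold protein Homer2 (-3.97) also fell, and the last of the 10, Ankrd1 and Nppb, are described with the chamber genes. Of the genes described here with more than 1 probe, none had probes called in opposite directions.

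Of 30 measured transcription factors with known roles in the AV canal and node, repressors and activators together, 15 were lower in the AV node and 3 higher, with a median of -0.48, against 19.8% lower and 18.3% higher among all genes. In working myocardium the list's median stage change was -0.38. By the interaction test 7 members had a more positive change in AV tissue and 6 a more negative one, against 7.03% and 7.62% of all genes. Irx4, Irx5 and Hey2 are also in the chamber list and Nkx2-5 among the cardiomyocyte markers. Hopx, a homeodomain cofactor of cardiac growth, went from 11.69, 12.05 and 12.63 to 8.95, 9.36 and 10.03 (-2.64, adjusted p = 5.14e-07). Irx5, an Iroquois factor that patterns the ventricular repolarisation gradient, went from 8.01, 8.94 and 9.20 to 6.10, 6.46 and 6.76 (-2.32, adjusted p = 2.07e-06). Neither gene's groups overlapped.

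Nkx2-5, the homeodomain activator required for conduction system development, went from 8.63, 9.0 and 10.05 to 6.53, 6.80 and 7.32 (-2.29, SE 0.219, adjusted p = 4.91e-06). The 6 node arrays all lay below the canal arrays. In working myocardium Nkx2-5 differed by -0.73, and the interaction was -1.54 (adjusted p = 0.00065). Prox1, a homeobox factor also needed for sarcomere structure, fell by 1.60 (adjusted p = 1.27e-05).

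Tbx20, a T-box factor of endocardium and myocardium, rose from 8.75, 9.38 and 9.74 to 10.45, 10.75 and 11.11 (1.46, adjusted p = 1.84e-05), and Msx1, a BMP target of the AV canal, by 1.30. Etv1, linked to fast conduction, was the other rise (0.80). Tbx2, the T-box repressor that acts with Tbx3 in the AV canal, fell by 0.49 (adjusted p = 0.0336), and the activator Tbx5 by 0.47 (adjusted p = 0.0445). The calls of Tbx2 and Tbx5 were lost with either AV node subset alone and with AV canal slide code 1 alone, and Tbx5 also without AV canal replicates 4 and 6 (-0.28, adjusted p = 0.2), where Tbx2 was -0.28. Msx2 (-1.39), Irx3 (-1.46), Irx4 (-1.34), Tbx18 (-1.34) and the Notch targets Hey1 (-0.78) and Hey2 (-0.39) were lower as well, Hey2 not with AV node replicates 1 to 3 alone (adjusted p = 0.146) or AV canal slide code 2 alone (adjusted p = 0.168). Gata4 (-0.09, adjusted p = 0.789), Shox2 (-1.11, adjusted p = 0.254) and Isl1 (-1.17, adjusted p = 0.126) did not pass the test, though Shox2 did with AV canal slide code 2 (replicates 4 to 6) alone (-2.21, adjusted p = 0.025).

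Genes of the chamber programme were mostly lower in the AV node. Of 11 measured, 8 were lower and 2 higher, against 19.8% and 18.3% of all genes. The list median was -1.34, and it was -1.69 with AV node replicates 1 to 3 alone and -1.18 with replicates 4 to 6 alone. Ankrd1, a stretch-responsive repeat protein of the sarcomere, went from 11.40, 11.78 and 12.43 to 6.79, 7.92 and 8.75 (-4.03, SE 0.320, adjusted p = 9.89e-07), a 16.3-fold fall. Nppb, B-type natriuretic peptide, went from 8.92, 10.61 and 11.02 to 6.12, 6.47 and 7.30 (-3.81, SE 0.338, adjusted p = 2.52e-06). Both genes' stages were separate, although AV canal replicate 6 was the lowest canal array for Nppb by a wide margin.

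Nppa, A-type natriuretic peptide and the gene that drives the reporter of the working myocardium, had 8.57, 11.90 and 12.50 in the canal and 6.75, 8.11 and 11.42 in the node (-2.92, SE 0.886, adjusted p = 0.0265). Its stages overlapped, because replicate 6 held the 8.57 in the canal. Without that array the difference was -3.50 (adjusted p = 0.00506), with AV node replicates 1 to 3 alone it was -4.67 (adjusted p = 0.00148), and with replicates 4 to 6 alone it was -1.30 (adjusted p = 0.328). The call was also lost with AV canal slide code 2 alone (-2.35, adjusted p = 0.237) and when any of AV canal replicates 1 to 5 or AV node replicates 1 to 3 was left out. Its other probe, ILMN_1257292, differed by -1.24 (adjusted p = 0.0315), a call lost without any of AV canal replicates 1 to 4 or AV node replicates 1 to 4. It was -0.75 with AV canal slide code 2 alone (adjusted p = 0.335), -1.94 with AV node replicates 1 to 3 alone and -0.70 with replicates 4 to 6 alone (adjusted p = 0.336). Working myocardium on the same probes went from medians of 14.86 to 15.11 and 11.16 to 13.02 on the 24-array scale, and the interaction was -3.23 (adjusted p = 0.0293) and -2.88 (adjusted p = 0.000264). The first of these interactions was lost without AV canal replicate 3 or 4 or AV node replicate 1, 2 or 3, and without working replicates 5 and 6 at E10.5 (-3.35, adjusted p = 0.0508). It was -4.89 with AV node replicates 1 to 3 alone and -1.60 (adjusted p = 0.286) with replicates 4 to 6 alone. The working samples were selected by an Nppa reporter, so the comparison of tissues for Nppa is a description only.

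The sequence upstream of 2 of these genes is shown because T-box factors bind a short half-site, TCACAC, that was found in both. The windows are the 250 bases before the RefSeq start (GRCm38.p6), 5′ to 3′ on the gene's strand, with the match on either strand in capitals. Nppa is at chr4:148000472-148000721 on the plus strand and Ankrd1 at chr19:36119845-36120094 on the minus strand.
Nppa: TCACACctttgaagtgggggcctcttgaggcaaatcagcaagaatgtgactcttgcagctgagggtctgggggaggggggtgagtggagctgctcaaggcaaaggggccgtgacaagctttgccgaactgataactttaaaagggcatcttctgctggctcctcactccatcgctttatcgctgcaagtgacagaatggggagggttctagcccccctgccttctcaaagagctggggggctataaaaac
Ankrd1: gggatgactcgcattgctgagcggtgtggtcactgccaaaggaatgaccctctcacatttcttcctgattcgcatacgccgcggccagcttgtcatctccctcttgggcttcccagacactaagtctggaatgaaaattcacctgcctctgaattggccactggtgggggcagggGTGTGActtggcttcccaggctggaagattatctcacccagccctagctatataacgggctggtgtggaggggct
The match began at position -250 in Nppa, the very edge of the window, and at -75 in Ankrd1. Among the lower chamber genes with a promoter entry, 3 of 7 held TCACAC (42.9%), against 13.9% of all 27025 genes with an entry, the third being Myl2, and of the 9 measured with an entry 3 did (33.3%). A match in these letters is a description and not evidence of binding.

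The contractile genes fell as a group. Of 31 measured sarcomere genes, 23 were lower in the AV node and 2 higher (median -1.65), against 19.8% and 18.3% of all genes. The stages did not overlap for 19 of them, against 25% of all genes. The slow skeletal troponin Tnni1, the troponin I of the embryonic heart, went from 12.08, 13.27 and 13.73 to 8.09, 9.75 and 10.24 (-3.45, SE 0.387, adjusted p = 1.87e-05). Tnni3, the cardiac troponin I that replaces it, went from 12.20, 12.37 and 13.34 to 9.26, 10.43 and 11.88 (-1.99, adjusted p = 0.0053). Both troponins were thus lower in every node array than in any canal array.

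Myl7, the atrial regulatory light chain, went from 13.57, 13.82 and 14.59 to 9.61, 11.40 and 12.87 (-2.65, adjusted p = 0.00205). Myl2, the ventricular regulatory light chain, went from 14.68, 15.19 and 15.25 to 11.47, 12.91 and 14.53 (-2.14, adjusted p = 0.00214). Mybpc3 (-2.66), Myl3 (-2.61), Actc1 (-2.45) and the alpha myosin heavy chain Myh6 (-2.26) also fell. Titin, Ttn, differed by -1.74 and did not pass (adjusted p = 0.0582), but did with AV node replicates 1 to 3 alone (-3.16, adjusted p = 0.000118). The exceptions were Tpm2 (0.59) and Myom2, an M-band protein, which rose from 5.87, 6.57 and 7.12 to 7.57, 9.33 and 11.19 (2.71, adjusted p = 0.00203). The Tpm2 call was lost with either AV node subset alone and with AV canal slide code 2 alone.

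The size of the sarcomere difference depended on the node arrays. Its list median was -2.69 with AV node replicates 1 to 3 alone (27 genes lower) and -0.93 with replicates 4 to 6 alone (21 lower). With replicates 1 to 3 alone and replicates 4 to 6 alone respectively, Tnni3 was -3.04 and -0.96, and Myom2 was 1.67 and 3.90. With replicates 4 to 6 alone Myl7 was -1.52, Myl2 -1.19, Myl3 -1.60, Mybpc3 -1.55 and Ldb3 -0.70, all still called. Of the 11 cardiomyocyte markers, 8 are members of the sarcomere list, so the 2 lists share this split. With AV canal slide code 1 alone Tnni3 missed the threshold (-1.88, adjusted p = 0.0561). In working myocardium the list's median stage change was 0.25, and 23 of the 31 genes had a more negative change in AV tissue by the interaction test, against 7.62% of all genes. Myl2 was an exception, since it fell by 5.40 in working myocardium and the interaction was 3.29.

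**Figure D3:**
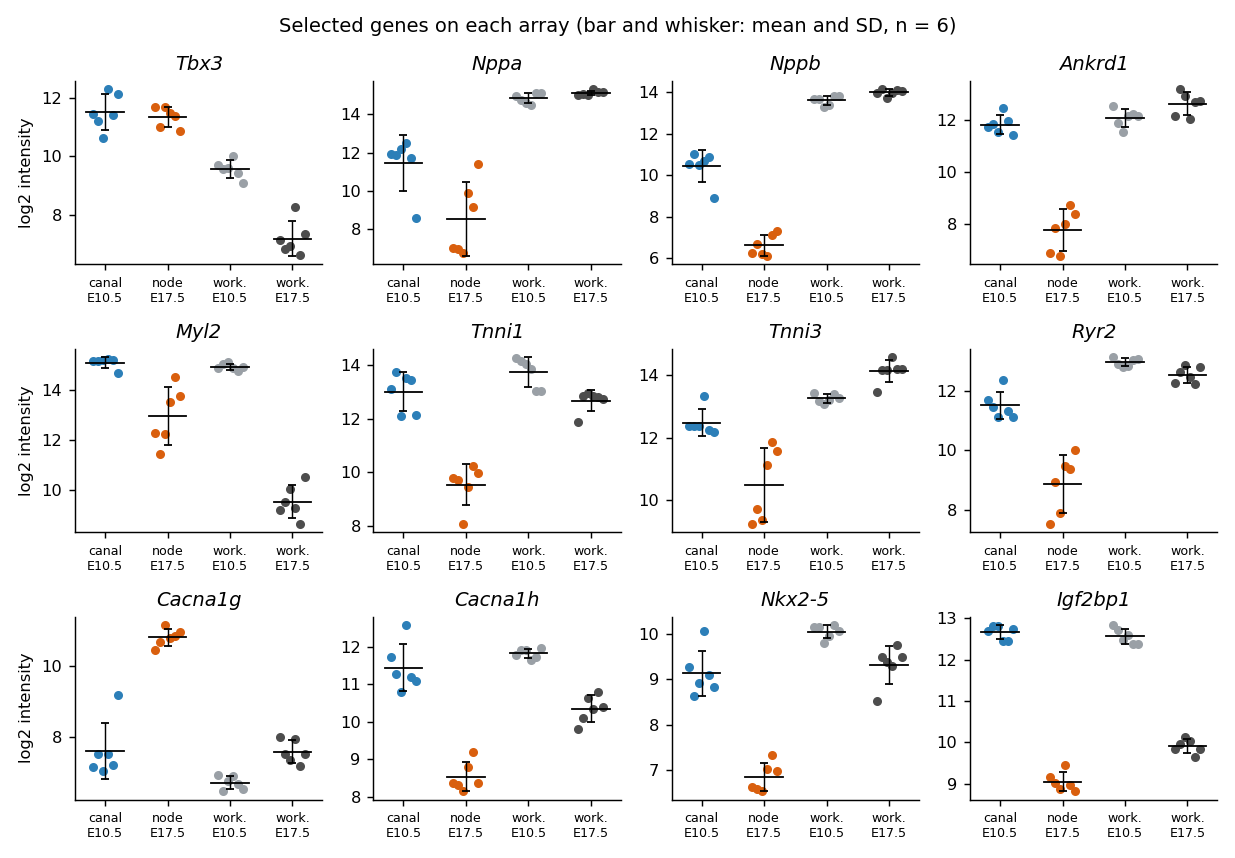
Normalized log2 intensity of 12 genes in the 4 groups of the study, as dots for each array with the mean and SD (n = 6). The AV values come from normalization over the 12 AV arrays and the working values from normalization over all 24 arrays. Tbx3 overlaps between the AV groups and falls in working myocardium, while Tnni1, Ankrd1 and Igf2bp1 are lower in the AV node than in the AV canal.

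Serum response factor, an activator of muscle genes, binds a sequence known as the CArG box, and the windows of Acta1 and Myl7 are shown for their matches to it. Acta1 lies at chr8:123894776-123895025 and Myl7 at chr11:5898783-5899032, both on the minus strand of GRCm38.p6, in the same format.
Acta1: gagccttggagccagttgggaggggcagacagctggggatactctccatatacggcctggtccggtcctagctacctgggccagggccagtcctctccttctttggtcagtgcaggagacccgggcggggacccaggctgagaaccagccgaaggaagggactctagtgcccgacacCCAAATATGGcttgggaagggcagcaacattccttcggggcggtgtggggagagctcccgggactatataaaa
Myl7: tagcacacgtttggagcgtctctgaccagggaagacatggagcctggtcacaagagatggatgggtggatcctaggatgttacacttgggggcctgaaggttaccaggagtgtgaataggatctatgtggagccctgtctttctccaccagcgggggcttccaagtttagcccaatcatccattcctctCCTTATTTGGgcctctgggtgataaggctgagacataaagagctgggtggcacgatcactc
The box began at -73 in Acta1 and at -61 in Myl7. Of 20 lower sarcomere genes with an entry, 6 held such a match (30%), against 1.62% of all genes. They were Acta1, Myl7, Myl3, Actc1, Myom1 and Ldb3. Of the 27 measured with an entry 7 did (25.9%), so the share of the lower genes was near that of the whole list. A match is a description and not evidence of binding.

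Calcium-handling genes followed the contractile ones in part. Of 19 measured, 9 were lower and 1 higher (median -0.16), against 19.8% and 18.3% of all genes. With AV node replicates 4 to 6 alone 4 were lower. Ryr2, the release channel of the sarcoplasmic reticulum, went from 11.10, 11.38 and 12.35 to 7.53, 9.14 and 10.02 (-2.64, adjusted p = 0.000212). Hrc (-2.47), phospholamban Pln (-2.12), the sodium-calcium exchanger Slc8a1 (-1.69) and the calcium pump Atp2a2 (-1.35) were lower too. With AV node replicates 4 to 6 alone, Hrc was -1.52, Pln -1.28 and Atp2a2 -0.75, the last no longer called (adjusted p = 0.0533), as it was not with AV canal slide code 1 alone (adjusted p = 0.0599). Casq2, the calcium buffer calsequestrin, rose from 6.51, 6.97 and 7.45 to 7.92, 8.86 and 10.41 (2.01, adjusted p = 0.00237), and in working myocardium it rose by 4.39, a larger change (interaction -2.39). With AV node replicates 1 to 3 alone the AV difference of Casq2 was 1.14.

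The counts of ion channel genes were near those of all genes. Of the 17 pacemaker, calcium and sodium channel genes measured, 3 were higher and 3 lower, a median of 0, and of 23 potassium channel genes 5 were higher and 6 lower, a median of -0.06. T-type calcium channels carry the low-voltage current of nodal cells, and the 2 cardiac pore subunits moved in opposite directions. Cacna1g (Cav3.1) rose from 7.02, 7.35 and 9.17 to 10.46, 10.82 and 11.17 (3.24, SE 0.309, adjusted p = 4.72e-06), a 9.43-fold rise. Cacna1h (Cav3.2) fell from 10.80, 11.25 and 12.59 to 8.14, 8.36 and 9.18 (-2.92, adjusted p = 4.19e-06), a 7.59-fold fall. The stages were separate for both, and AV canal replicate 6 held the highest canal value of Cacna1g. In working myocardium Cacna1g changed by 0.88 and Cacna1h by -1.47, and the interaction for Cacna1g was 2.37 (adjusted p = 5.51e-05).

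The auxiliary subunit Cacna2d1 rose by 1.45 while Cacna2d2 fell by 2.48, and the L-type pore Cacna1c fell by 0.80 (adjusted p = 0.0300). The Cacna1c call was lost with either AV node subset alone and with AV canal slide code 1 alone (-0.46, adjusted p = 0.0705), and without AV canal replicates 4 and 6 the difference was -0.51. Hcn4, the main pacemaker channel of the conduction system, was at 6.09 to 6.29 in the canal and 6.01 to 6.23 in the node, at background on all 12 arrays, so its probe gives no level.

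Among the potassium channels, Kcne4, an inhibitory beta subunit, rose from 6.30, 6.45 and 6.49 to 8.82, 9.02 and 9.25 (2.61, adjusted p = 4.11e-10). Kcnj8, a pore of ATP-sensitive channels, rose by 2.45, and by 4.18 in working myocardium. Kcne1, the beta subunit of the slow delayed rectifier, fell by 2.09 (adjusted p = 0.000436) and by 2.08 in working myocardium. Kcnj5, a pore of the acetylcholine-activated current, fell by 1.31, and Kcna5 was at least 1.42-fold lower with no node array above background. Kcna4, also counted as lower, was at background on all 12 arrays.

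Of 20 gap junction and adhesion genes, 6 were lower and 4 higher (median -0.09), against 19.8% and 18.3% of all genes. The desmosomal cadherin Dsg2 went from 8.50, 9.66 and 10.22 to 5.94, 6.74 and 7.76 (-2.70, adjusted p = 6.86e-05), and the desmosomal plaque proteins Pkp2 (-1.52) and Jup (-0.80) fell with it. Dsg2 in working myocardium differed by 0.03. Itga7, counted as higher, was at background on all 12 arrays. Among connexins, Gjc1 (Cx45), the low-conductance connexin of the AV canal, fell by 1.08 (adjusted p = 7.19e-06) and by 1.21 in working myocardium. Gja1 (Cx43, -0.53, adjusted p = 0.0894) and Gja5 (Cx40, -0.18, adjusted p = 0.507) did not pass in AV tissue, though Gja5 did without AV canal replicates 4 and 6 (-0.39, adjusted p = 0.0481). The stage change of Gja1 was 1.08 in working myocardium, and the interaction was -1.62 (adjusted p = 8.08e-05).

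Of 18 autonomic and adenosine receptor genes and their regulators, 5 were higher and 4 lower (median 0.11). These counts were near the 18.3% higher and 19.8% lower among all genes. The regulators of G-protein signalling Rgs5 (2.63) and Rgs4 (1.34) and the natriuretic peptide receptor Npr2 (1.55) rose, and the G-protein subunit Gnao1 fell by 1.08. The Gnao1 difference was -1.72 with AV node replicates 1 to 3 alone and -0.45 with replicates 4 to 6 alone, where its call was lost (adjusted p = 0.168). The call was lost too with AV canal slide code 1 alone (adjusted p = 0.0929), slide code 2 alone (0.0886) and without AV canal replicates 4 and 6 (0.0538). Rgs5 is also a pericyte marker of the list above.

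Of 22 BMP and TGF-beta genes, 10 were higher and 4 lower (median 0.07), against 18.3% and 19.8% of all genes. With AV node replicates 4 to 6 alone 6 were higher. Tgfb3 rose from 8.47, 8.91 and 9.25 to 11.67, 11.98 and 12.22 (3.11, adjusted p = 8.29e-09), whereas Tgfb2, the ligand of cushion formation, fell by 1.60 (adjusted p = 1.55e-05). Bmp7 went from 9.33, 9.5 and 10.52 to 6.46, 7.04 and 7.62 (-2.63, adjusted p = 1.79e-06), whereas Bmp6 rose by 1.70. The stages of Tgfb3 and of Bmp7 were separate.

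On the receptor side, Tgfbr2 rose by 1.78 and Bmpr1a, which is required in AV canal myocardium, fell by 0.85. The Bmpr1a call was lost with AV node replicates 1 to 3 alone (-0.64, adjusted p = 0.164), with AV canal slide code 1 alone (-0.49, adjusted p = 0.157) and without AV canal replicates 4 and 6 (-0.65, adjusted p = 0.0502). The extracellular BMP antagonist Chrd rose by 1.82. Bmp4 rose by 0.64 (adjusted p = 0.0136), a call lost with either AV node subset alone (0.0858 and 0.0959), and Bmp2, the ligand that induces AV canal identity, was at background on all 12 arrays.

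Of 25 Notch and Wnt genes, 9 were higher and 6 lower (median 0), against 18.3% and 19.8% of all genes. Heyl, a Notch target repressor, rose from 6.05, 6.25 and 6.56 to 9.52, 9.79 and 10.05 (3.50, adjusted p = 1.46e-09), with an interaction of 2.54. Notch1 rose by 1.45 and the Wnt target Axin2 by 1.22. Among secreted Wnt modulators, Dkk3 rose from 11.49, 12.18 and 12.65 to 14.66, 14.79 and 15.09 (2.70, adjusted p = 3.78e-07), and Sfrp2 (2.24) and Sfrp1 (1.34) rose with it. Wnt2 went from 9.77, 10.18 and 11.28 to 7.31, 7.51 and 8.27 (-2.68, adjusted p = 4.26e-06), and by -3.01 in working myocardium. Beta-catenin, Ctnnb1, fell by 1.10. With AV node replicates 1 to 3 alone, 2 of the list were lower in place of 6.

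Of the 16 gene lists, the extracellular matrix had the most members higher in the AV node. Of 31 measured genes, 22 were higher and 4 lower, with a median of 1.76, and the stages did not overlap for 22 of them. Among all genes 18.3% were higher and 19.8% lower, and the stages did not overlap for 25%. Bgn, biglycan, a small proteoglycan, rose from 7.76, 8.95 and 9.55 to 13.07, 13.60 and 13.93 (4.84, adjusted p = 1.58e-07). Col6a1, of microfibrillar collagen VI, rose from 9.30, 10.43 and 10.86 to 14.36, 14.68 and 14.90 (4.36, adjusted p = 3.52e-08). Lox, the enzyme that cross-links collagen and elastin, rose by 4.36 as well. Each was higher on every node array than on any canal array.

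Of the fibrillar collagens, Col1a2 rose by 3.06, Col1a1 by 2.76 and Col3a1 by 2.52, while Col2a1 fell by 1.34 and Col11a1 did not pass. Also higher were the proteoglycans Lum (3.53) and Dcn (2.66) and periostin, Postn (2.83). Col15a1 was above background on no canal array and at least 7.62-fold higher in the node. Hapln1, the link protein of hyaluronan in the cushions, went the other way, from 10.02, 11.39 and 11.82 to 8.21, 8.78 and 9.40 (-2.33, adjusted p = 0.000188). Sparc (-1.59, adjusted p = 0.0354) was lower too, a call lost with either slide code alone, without AV canal replicates 4 and 6 (adjusted p = 0.106) and with AV node replicates 4 to 6 alone (adjusted p = 0.249). Vcan, Has2 and Fn1 did not pass, though Fn1 did without AV canal replicates 4 and 6 (-0.52, adjusted p = 0.00849) and with AV canal slide code 1 alone (-0.41). Lum, Dcn, Postn, Col1a1, Col1a2 and Col3a1 are also in the fibroblast list, whose rise is given above. The median stage change of the matrix list in working myocardium was 1.04, and 16 of 31 genes had a more positive change in AV tissue, against 7.03% of all genes.

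**Figure D4:**
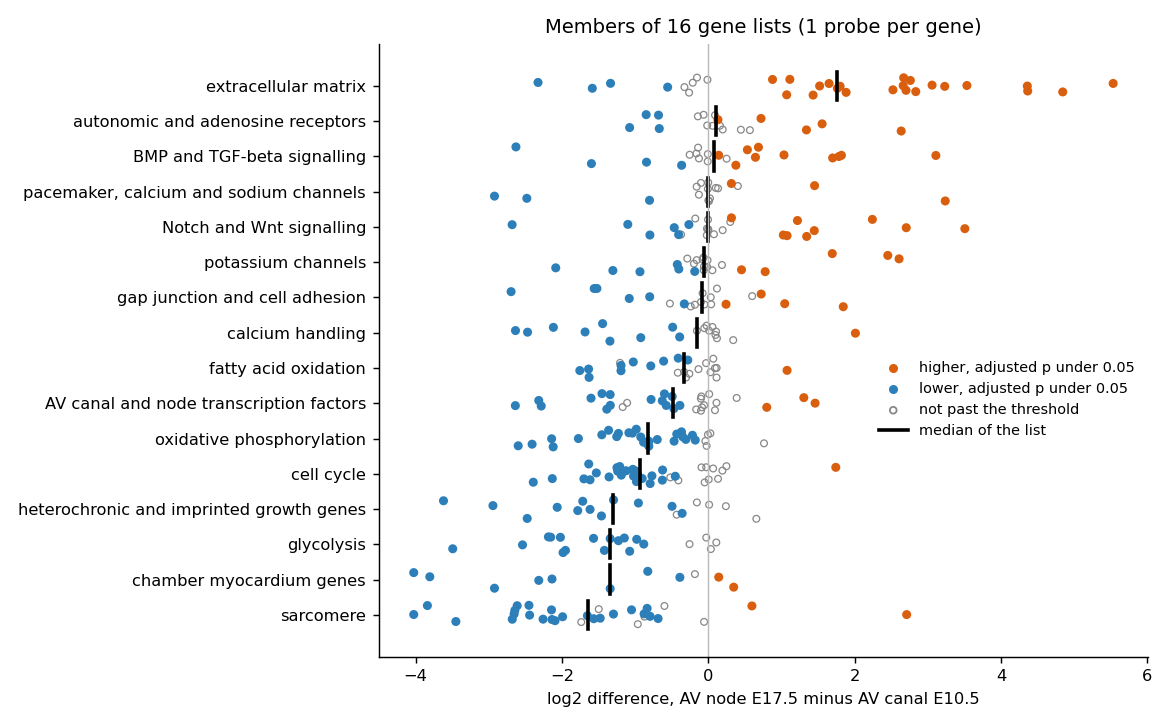
Difference in log2 intensity, AV node minus AV canal, of every measured member of 16 gene lists, with filled points for members that passed the test and a bar at the list median. The matrix list lies mostly to the right of 0 and the sarcomere, glycolysis, oxidative phosphorylation and cell cycle lists mostly to the left.

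Transcripts of many energy metabolism genes were lower in the AV node. Of 19 glycolysis genes 15 were lower and none was higher (median -1.34). Of 32 oxidative phosphorylation genes 27 were lower and none higher (median -0.83). Of 23 fatty acid oxidation genes 10 were lower and 1 was higher (median -0.33). Among all genes 19.8% were lower and 18.3% higher. Slc2a1, the glucose transporter GLUT1, went from 12.42, 12.94 and 13.57 to 8.86, 9.35 and 10.08, an 11.3-fold fall (adjusted p = 1.66e-07). Hk2, hexokinase 2, went from 12.89, 13.56 and 14.25 to 9.97, 11.07 and 11.80 (-2.54, adjusted p = 3.70e-05). Both stages were apart in each gene. Gapdh, often taken as a reference gene, fell by 0.98 (adjusted p = 5.61e-08).

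Cox5a, a subunit of cytochrome c oxidase, went from 12.86, 12.98 and 13.65 to 10.23, 10.46 and 10.92 (-2.60, adjusted p = 4.47e-08). The muscle isoforms of the same complex, Cox6a2 (-2.41) and Cox7a1 (-2.14), and the ATP synthase subunit Atp5a1 (-2.12) fell as well. The other Atp5a1 probe, ILMN_1225041, above background on all 12 arrays, differed by only -0.16 and did not pass (adjusted p = 0.505). In the working myocardium Cox6a2 and Cox7a1 changed by 0.83 and 0.84, with interactions of -3.32 and -3.01. With AV node replicates 4 to 6 alone their AV differences were -1.40 and -1.25. Sdha, counted among the lower oxidative phosphorylation genes, was at background on all 12 arrays. For fatty acids, Cpt1b (-1.64), the dehydrogenase Acadm (-1.63) and the coactivator Ppargc1b (-1.76) were lower, and Acadvl was higher (1.07, adjusted p = 2.93e-06). The other Cpt1b probe, ILMN_2709240, above background on all 12 arrays, differed by -0.53 and did not pass (adjusted p = 0.061). With median scaling 16 fatty acid oxidation genes were lower.

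By the interaction test, the stage change was more negative in AV tissue than in working myocardium for 7.62% of all genes. It was so for 13 of 19 glycolysis genes, 23 of 32 oxidative phosphorylation genes and 10 of 23 fatty acid oxidation genes. The list medians in working myocardium were -0.14, -0.14 and 0.15.

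Proliferation genes were lower at the later stage. Of 34 cell cycle genes 23 were lower and 1 was higher (median -0.93), against 19.8% and 18.3% of all genes. Rrm2, a ribonucleotide reductase subunit that supplies DNA precursors, went from 10.65, 11.52 and 12.28 to 8.58, 9.14 and 9.45 (-2.39, adjusted p = 4.18e-06). Cdk1, the mitotic kinase, went from 10.84, 11.41 and 11.48 to 9.66, 10.10 and 10.31 (-1.24, adjusted p = 1.01e-05). Cdc6, which loads the replication helicase, went from 8.94, 9.19 and 9.65 to 7.69, 7.83 and 8.03 (-1.36, adjusted p = 2.08e-06). The stages were separate for all 3.

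Ccne1 (-2.13), Pcna (-1.70), Tyms (-1.64), the inhibitor Cdkn1c (-1.62) and the helicase subunit Mcm2 (-1.25) fell too. Cdkn2c, the INK4 inhibitor p18, was the exception and rose from 6.92, 7.25 and 7.42 to 8.62, 8.94 and 9.16 (1.74, adjusted p = 7.65e-08). The working myocardium changed in the same list by a median of -0.70. The interaction was more negative for 3 genes and more positive for 1, against 7.62% and 7.03% of all genes.

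Many S-phase genes are controlled by E2F factors, and the windows of Cdc6 and Cdk1 are shown because each held an E2F site, searched as TTTGGCGC, TTTCCCGC, TTTCGCGC or TTTGCCGC on both strands. Cdc6 lies at chr11:98907901-98908150 on the plus strand and Cdk1 at chr10:69352913-69353162 on the minus strand of GRCm38.p6.
Cdc6: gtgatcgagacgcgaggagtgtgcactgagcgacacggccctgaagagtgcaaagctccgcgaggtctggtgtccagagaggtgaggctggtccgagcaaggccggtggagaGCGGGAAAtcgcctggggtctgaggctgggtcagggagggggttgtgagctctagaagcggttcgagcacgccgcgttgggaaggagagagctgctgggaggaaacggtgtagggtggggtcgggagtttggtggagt
Cdk1: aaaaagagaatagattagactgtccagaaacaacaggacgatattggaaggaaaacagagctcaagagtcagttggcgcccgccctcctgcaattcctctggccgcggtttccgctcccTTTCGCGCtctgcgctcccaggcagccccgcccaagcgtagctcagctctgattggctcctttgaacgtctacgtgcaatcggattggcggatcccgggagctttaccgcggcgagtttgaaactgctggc
The site began at -138 in Cdc6 and at -131 in Cdk1. Of 17 lower cell cycle genes with an entry, 5 held a site (29.4%), against 2.16% of all genes. They were Cdc6, Cdk1, Mcm5, Mcm6 and Mcm7. Of the 27 measured with an entry 7 did (25.9%), so here too the lower genes were near the whole list. A match is a description and not evidence of binding. Mcm5 (-0.63) was not called with AV node replicates 4 to 6 alone (adjusted p = 0.0551) or with AV canal slide code 2 alone (adjusted p = 0.0832).

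Genes that mark early developmental time were lower in the AV node. Of 17 heterochronic and imprinted growth genes 12 were lower and none was higher (median -1.30), against 19.8% and 18.3% of all genes. Igf2bp1, an RNA-binding protein of fetal growth, went from 12.46, 12.72 and 12.82 to 8.82, 8.99 and 9.45 (-3.62, SE 0.109, adjusted p = 5.21e-10), a 12.3-fold fall, and it fell by 2.66 in working myocardium. Trim71, a target of let-7, was at 7.95, 9.11 and 10.40 in the canal and above background on no node array, at least 5.82-fold lower (adjusted p = 2.51e-05). Lin28b, the inhibitor of let-7 processing, was at least 2.37-fold lower by the same measure. These 3 genes were separate between the stages.

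Arid3b (-2.48), Mest (-2.07), Peg3 (-1.72) and Hmga2 (-1.46) were lower too. The imprinted growth genes Igf2 (0.24, adjusted p = 0.0645) and Dlk1 (-0.43, adjusted p = 0.274) did not pass, but did with AV node replicates 1 to 3 alone (0.34 and -0.79, adjusted p = 0.0156 and 0.0308). Dlk1 changed by 2.45 in working myocardium.

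To ask which of these changes were particular to AV tissue, each stage change was set against that in working myocardium. The interaction was called for 4366 probes (9.36%), 2224 with a more positive change in AV tissue (4.77%) and 2142 with a more negative one (4.59%). Of the 5904 probes higher in the AV node, 2873 were also called higher at E17.5 in working myocardium and 131 lower, and 1662 had a more positive interaction. Of the 6492 lower probes, 4257 were also lower in working myocardium and 238 higher, and 1182 had a more negative interaction. The share of all probes called in working myocardium is not given here, so these counts do not measure how far the changes were shared. The interaction contains the AV stage change itself. Probes picked by that change are therefore favoured for an interaction of the same sign. The 2 tissues differ in transgenic line as well as in position, and these cannot be told apart here.

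**Figure D5:**
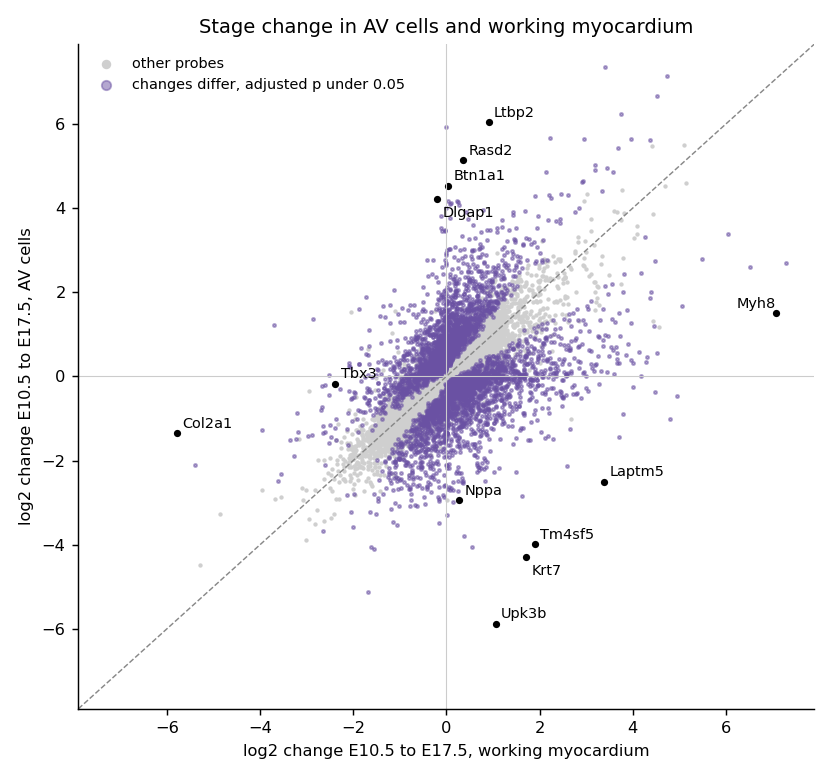
Stage change in log2 intensity (E17.5 minus E10.5) of each probe in working myocardium on the horizontal axis and in AV tissue on the vertical axis, with interaction calls in purple and a dashed line of equality. Most probes lie near the centre or along the line, and the purple probes lie off it.

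Among the most positive interactions, Ltbp2 (5.13, adjusted p = 1.61e-08) and Rasd2 (4.78, adjusted p = 9.80e-10) rose in AV tissue and differed by 0.91 and 0.36 in working myocardium. Btn1a1, a butyrophilin, and Dlgap1, a scaffold of synapses, rose by 4.48 and 4.22 in AV tissue and differed by 0.03 and -0.19 in working myocardium (interactions 4.50 and 4.41). Col2a1, cartilage collagen, was of another kind: it fell in both, by 1.34 in AV tissue and by 5.79 in working myocardium. On the 24-array scale its working values were 11.71, 11.94 and 12.09 at E10.5 and 5.94, 6.14 and 6.30 at E17.5.

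Among the most negative interactions, Upk3b (-6.93, adjusted p = 2.00e-06), Krt7 (-6.00) and Tm4sf5 (-5.88) fell in AV tissue and differed by 1.06, 1.72 and 1.90 in working myocardium. For Upk3b the working samples read 7.93, 11.35 and 12.02 at E10.5 and 10.73, 11.39 and 12.71 at E17.5, which overlap. Laptm5, a lysosomal protein of blood cells, fell by 2.49 in AV tissue and changed by 3.38 in working myocardium (interaction -5.89, adjusted p = 5.68e-05). Working replicates 5 and 6 at E10.5 stood apart from the other working arrays of that stage in these 4 genes, for example at 7.45 and 8.04 against 10.23 to 10.97 for Krt7, and at 8.02 and 6.35 against 9.84 to 11.13 for Laptm5. Without those arrays, an alternative chosen after seeing the data, the interactions were -5.82 for Upk3b, -5.03 for Krt7, -5.07 for Tm4sf5 and -4.79 for Laptm5, all still called.

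Myh8, the perinatal myosin heavy chain, went from 6.31, 6.43 and 7.0 to 13.28, 13.71 and 13.93 in working myocardium, a rise of 7.08. In AV tissue it differed by 1.52 and did not pass (adjusted p = 0.0754), but it was 2.80 (adjusted p = 0.000221) with AV node replicates 4 to 6 alone, 0.31 (adjusted p = 0.722) with replicates 1 to 3 alone and 1.96 (adjusted p = 0.01) without replicate 1. The interaction was -5.57 (adjusted p = 1.07e-06).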

How the data were processed

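GFP-positive cells were profiled on Illumina mouse BeadChips, 1 sample per array. The deposited unprocessed table held probe intensity, and the authors' value table, per the file headers a separate processed table, was used as an alternative. Set against the intensities it followed a log2 scale, with centring unknown. Per the submitters' processing notes, the authors processed these log2 values with limma before deposit, and no quantile normalization was added here. The submitters' processing notes name limma, while the scanner settings and genome build were not given in the sources used here.

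From the intensities, the 12 AV arrays were corrected with normexp (offset 50), converted to log2, quantile-normalized and averaged per probe, leaving 46632 probes. A 2-group model was fitted with limma 3.58.1 in R 4.3.3 (eBayes, two-sided), and a call was an adjusted p under 0.05. The interaction was fitted to all 24 arrays normalized together, with 4 group means. Scripts were tested on simulated data. Background on an array was the main peak of its intensities plus 3 SDs of its lower side, and where every array of the dimmer group lay below it, the fold is given as a bound. The number of arrays limits the precision. In the simulated data, 41.8% of log2 changes of 1 were recovered in the AV comparison and 32.8% in the interaction. For log2 changes of 2 the shares were 92.4% and 66.7%. A gene that did not pass may therefore still differ.

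Of the probes, 29976 had 1 gene symbol in the platform annotation, 10 had several and 16646 had none. Of the 29986 annotated, 29921 matched RefSeq, whose symbols were used. The genes named were the 10 largest rises and 10 largest falls among called probes whose groups did not overlap and that were above background in the brighter group, up to 4 called members with the largest difference per list, the 2 reporter genes, and the 5 most positive and 5 most negative interactions. Members quoted beyond these, as pathway partners or because they did not pass, were chosen after their values were seen. The samples and gene lists were chosen with earlier results of these data known. Replicate numbers did not pair the samples: same-numbered AV samples deviated from their group means with r from -0.0608 to 0.0657, so no block was used. Alternatives covered normalization, background correction, the deposited values, a filter on dim probes, the variance model, array weights, slide code and leaving out arrays. Slide codes 1 and 2 held AV canal replicates 1 to 3 and 4 to 6, and the labels gave none for the AV node. Promoters were matched by symbol to RefSeq entries (GRCm38.p6).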

Additional observations from a re-analysis of the deposited data

Results flagged for a closer look

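Across 172 groups of 6 arrays tested for a single array far from the rest, 13 were found, where chance gives about 1 in 20, or 8.6. AV canal replicate 6 held 5 of them. It read 8.57 for Nppa (mean of the other arrays 12.05), 8.92 for Nppb (10.73), 9.17 for Cacna1g (7.27), 7.71 for Sfrp2 (6.43) and 7.98 for Islr (7.22). AV canal replicate 4 held another 5, all high: 11.87 for Hbb-bh1 (10.55), 12.31 for Mgarp (10.96), 10.52 for Bmp7 (9.48), 11.05 for Aldoc (9.0) and 13.65 for Cox5a (12.98). In the AV node, replicate 1 read 12.48 for Dpt (12.88), replicate 3 read 8.09 for Tnni1 (9.83) and replicate 4 read 9.08 for Rgs4 (8.27).

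The stage change differed between AV tissue and working myocardium by the interaction test for the genes below, given as log2 AV change minus working change. More positive in AV tissue were Ltbp2 (5.13), Rasd2 (4.78), Btn1a1 (4.50), Col2a1 (4.44), Dlgap1 (4.41) and both Tbx3 probes (2.21 and 1.09). More negative were Upk3b (-6.93), Krt7 (-6.00), Laptm5 (-5.89), Tm4sf5 (-5.88), Myh8 (-5.57) and both Nppa probes (-3.23 and -2.88). The interaction genes other than Tbx3 and Nppa were picked as the most extreme values. Tbx3 and Nppa drive the reporters by which the samples were selected, so their interactions are not independent of that selection. The reporter lines differ between the tissues, which cannot be told apart from the tissues themselves.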

How the results depend on the processing

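Calls between AV canal and AV node numbered 12396 and were 9652 to 13013 under the other settings, except for 22769 with median scaling and 3165 when at least 2-fold was required, by construction. The share higher in the AV node, 47.6%, moved to 56.8% with median scaling, 48.5% with cyclic loess, 46.2% with the deposited values, 49.1% for at least 2-fold, 45.9% with AV canal slide code 1 only and 45.3% with code 2 only. In alternatives chosen after seeing the data it was 46.5% without AV canal replicates 4 and 6, 49.1% with AV node replicates 1 to 3 only and 49% with replicates 4 to 6 only. Leaving out 1 array gave 11273 to 12025 calls and a share of 46.9% to 48.1%. The causes were not tested. Interaction calls, 4366, were 3009 to 5233.

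With the replicate number as a block, 11471 probes were called (47% higher) and 4385 interactions. Of 6 same-numbered pairs of AV canal and AV node samples, 0 correlated best with their own number, so between these the block rests on a shared number only. It ended the Nppa calls (adjusted p = 0.0884 and 0.128). Of the values of named genes under all alternatives, 2966 stayed on their side of the threshold, 54 lost the call and 6 gained it (all Myh8 in AV tissue). A called value never turned its sign, while 6 values of Tbx3 between the AV stages, none of them called, did (0.02 with array weights, 0.11 without AV canal replicate 6, and 0.17 to 0.32 with slide code 1 only or without AV canal replicates 4 and 6). The calls lost were those of Nppa, Gnao1 and the interactions of Tbx3 ILMN_1228778 and Nppa ILMN_3161547. Probes near background, the majority on each array, carry only bounds or no level.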

Other observations

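Some AV canal arrays differed in regulators of the sinus venosus and its pacemaker, picked here after their values were seen. Shox2, a homeobox factor of the sinus node, read 11.81 on AV canal replicate 6 and 7.16 to 9.20 on the other 5, and 7.23 to 8.10 in the AV node. Isl1, a factor of cardiac progenitors and the sinus node, read 10.26 on AV canal replicate 1 and 6.98 to 9.36 on the other 5. Replicate 6 was also the canal array with the lowest Nppa and Nppb and the highest Cacna1g, while Hcn4 there was at background (6.16).

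Several named genes were found on 1 side only of the background level. Tnxb, Itgbl1, Wnt16 and Otof exceeded background on all 6 AV node arrays and on no AV canal array, and Grb7, Etv2, Wnt2b and Fgf5 on all 6 AV canal arrays and on no AV node array.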
